A study of Homo sapiens with 8 samples.

Results

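The kinesins are a family of 42 genes among the 26364 genes of the count file, chosen by the symbol KIF or KIFC followed by a number. They were sorted by general knowledge of their roles into 14 mitotic kinesins, 15 transport kinesins and 13 ciliary and other kinesins. RNA was sequenced from 2 stable, G418-selected clones of LN229, a human glioblastoma cell line, in 8 libraries that form 4 groups of 2. Clone D6 (Surv-GFP) carries a plasmid for Survivin fused to eGFP with a working nuclear export sequence, and the fusion protein of untreated cells lies mainly in the cytoplasm. Clone L2 (SurvNESmut-GFP) carries the same fusion with a mutated export sequence, and the protein lies mainly in the nucleus. Each clone was left untreated or was exposed to the alkylating drug temozolomide (TMZ) at 50 µM for 48 h. All 4 groups carry a Survivin transgene beside endogenous Survivin, and each form of Survivin stands for 1 clone only, so that the clone and the Survivin form cannot be told apart. Where the proteins lay in the treated cells is not part of these RNA data. The study describes independent biological replicates with technical duplicates of each, and neither it nor the labels say which of these the letters a and b mark, so the spread that the p-values rest on may be biological or technical.

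Kinesins are motor proteins that hydrolyse ATP to move along or to dismantle microtubules. Mitotic kinesins build the spindle, move chromosomes and complete cytokinesis, and their genes are known to be transcribed mainly in G2 and mitosis. Transport kinesins carry vesicles, organelles and RNA, also in cells that do not divide, and others work in cilia or are named after the family without a settled role. Survivin itself, encoded by BIRC5, belongs to the chromosomal passenger complex, which acts with several mitotic kinesins at the centromere and the midzone.

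Promoters were compared because genes of G2 and mitosis are known for 2 promoter elements, the cell cycle homology region (CHR) and the CCAAT box. Promoter windows from RefSeq, on build GRCh38.p14, reach from 250 bases before to 50 after a transcription start and were given for 34 of the 42 kinesin genes, in 43 windows. The CHR was searched as TTTGAA or TTCGAA and the CCAAT box as CCAAT, on both strands, and the letters of the pair can share bases only at their ends. A CHR was in 12 of 15 windows of mitotic kinesins (80.0%), in 1 of 16 windows of transport kinesins (6.25%) and in 16.4% of all 35116 windows. A CCAAT box was in 11 of the mitotic windows (73.3%), in 5 of the transport windows (31.2%) and in 34.6% of all windows. Both stood together in 10 mitotic windows (66.7%), in 1 transport window (6.25%) and in 6.38% of all windows. By windows, the same CHR of KIF22 is counted in each of the overlapping windows of that gene. By genes, 11 of 14 mitotic kinesins had a CHR by these letters, and those without such a match were KIF20A, KIF2B and KIF2C. The share of all genes with a CHR was not counted. E2F sites, searched on both strands as TTCCCGC, as TTGGCGC, which can overlap a CCAAT box on the opposite strand, or as TTCGCGC, were in 3 of the mitotic windows (20%), in 3 of the transport windows (18.8%) and in 11.0% of all windows. The windows differ in base composition, with a median GC content of 62.0% in mitotic, 70.5% in transport and 58.7% in all windows. A match is a stretch of letters and not a shown binding site. Other forms of these elements were not searched, so a window without a match may still hold such a form.

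Shown are 6 promoters, 150 bases before to 20 after the start, written 5′ to 3′ on the strand of the gene, with a CHR or CCAAT box on either strand in capitals. KIF20A and KIF14 are given as the mitotic kinesins that fell most with TMZ in both clones. KIF23 is given as the mitotic kinesin that differed most between the clones. KIF2C is the tested mitotic kinesin with no match to either element, and KIF5B is the transport kinesin with a match to both. KIF1C is the transport kinesin that differed most between the clones.
KIF20A, chr5:138178962-138179131, plus strand: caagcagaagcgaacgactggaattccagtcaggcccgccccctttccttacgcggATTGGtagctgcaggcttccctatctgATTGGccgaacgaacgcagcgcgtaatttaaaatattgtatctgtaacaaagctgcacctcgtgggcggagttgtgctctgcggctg
KIF14, chr1:200620732-200620901, minus strand: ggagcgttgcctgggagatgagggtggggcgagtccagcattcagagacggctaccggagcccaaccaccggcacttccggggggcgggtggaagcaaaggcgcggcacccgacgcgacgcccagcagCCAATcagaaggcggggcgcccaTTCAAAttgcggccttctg
KIF23, chr15:69414199-69414368, plus strand: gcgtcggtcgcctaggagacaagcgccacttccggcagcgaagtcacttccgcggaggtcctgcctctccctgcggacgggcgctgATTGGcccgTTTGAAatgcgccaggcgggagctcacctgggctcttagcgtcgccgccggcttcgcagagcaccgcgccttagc
KIF2C, chr1:44739687-44739856, plus strand: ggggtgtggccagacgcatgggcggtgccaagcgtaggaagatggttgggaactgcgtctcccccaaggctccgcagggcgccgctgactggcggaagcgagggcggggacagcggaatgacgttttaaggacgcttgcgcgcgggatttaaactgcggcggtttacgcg
KIF5B, chr10:32056406-32056575, minus strand: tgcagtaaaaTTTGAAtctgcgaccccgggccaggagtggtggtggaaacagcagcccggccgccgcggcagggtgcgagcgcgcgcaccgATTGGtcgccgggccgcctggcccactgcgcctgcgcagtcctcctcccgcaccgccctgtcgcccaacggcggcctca
KIF1C, chr17:4997800-4997969, plus strand: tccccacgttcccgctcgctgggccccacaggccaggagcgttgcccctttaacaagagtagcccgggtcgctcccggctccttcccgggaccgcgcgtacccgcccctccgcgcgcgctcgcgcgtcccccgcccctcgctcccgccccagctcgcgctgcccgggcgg
In these lines KIF20A shows 2 CCAAT boxes, read on the opposite strand as ATTGG, and no match to the CHR letters searched. KIF14 and KIF23 show 1 of each, with a CCAAT box ahead of the CHR in the direction of transcription. In KIF5B the order is turned, with the first base of the CHR at -140 and that of the CCAAT box at -59 from the start. KIF2C and KIF1C show no match to either.

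The libraries held from 15826923 to 18861603 counts on genes, and 14201 genes passed the filter on low counts. Libraries of a group differed by more than sampling noise, with a chi-square per degree of freedom between 2.2 and 5.74, the highest in SurvNESmut-GFP after TMZ. Of the genes chosen to check the cell line, VIM had 39128 to 69813 and NES 9647 to 18097 counts per library. EGFR had 891 to 1731 counts, GFAP at most 17 and the repair gene MGMT 0 in all libraries. SOX2 had 1639 and 1677 counts in untreated Surv-GFP and 620 and 634 in untreated SurvNESmut-GFP. OLIG2 had 650 and 593 against 136 and 117 counts, so the clones were not alike in these genes. PTPRC, CD3E, PECAM1, EPCAM, HBB and ALB, markers of other cell types, had at most 7 counts in a library. BIRC5 counts include the transgene, and its level was 1132 CPM (counts scaled to a common library size) in untreated Surv-GFP and 411 CPM in untreated SurvNESmut-GFP.

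Of the 42 kinesins, 35 could be tested, namely 13 mitotic, 13 transport and 9 ciliary and other kinesins. KIF2B, KIF19 and KIF25 had 0 counts in all 8 libraries, which allows up to 3 counts in each for counting error alone. KIF1A and KIF17, both best known from neurons, had totals of 2 and 21 counts over all libraries, KIF26A had 1 and KIF12 had 34. Per kilobase of exon, the transport kinesin KIF5B stood highest in untreated Surv-GFP cells at 65.8 CPM per kb, followed by the mitotic kinesin KIF20A at 54.3 and KIF2C at 37.1 CPM per kb. After TMZ the same cells had 73.0 CPM per kb of KIF5B and 5.50 CPM per kb of KIF20A. In untreated SurvNESmut-GFP cells KIF5B was at 86.5 and KIF20A at 73.0 CPM per kb, and after TMZ they were at 71.2 and 16.8 CPM per kb.

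The class sums set the scale of the response. Mitotic kinesins together held 1297 ± 69.3 CPM (SD, n = 2) in untreated Surv-GFP and 592 ± 21.0 CPM after TMZ. In SurvNESmut-GFP they held 1814 ± 22.6 CPM untreated and 1058 ± 31.1 CPM after TMZ. Their share of all kinesin counts went from 43.8% ± 1.1 to 24.9% ± 0.85 in Surv-GFP and from 50.2% ± 0.071 to 36.5% ± 1.3 in SurvNESmut-GFP. The shares of the treated and untreated libraries of a clone did not overlap. Transport kinesins held 1426 ± 13.4 CPM untreated and 1551 ± 14.1 CPM after TMZ in Surv-GFP, and 1592 ± 21.9 and 1622 ± 51.6 CPM in SurvNESmut-GFP, where the libraries with and without TMZ overlapped. In RNA of whole cultures, fewer cells in mitosis and less mitotic RNA per cell cannot be told apart.

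**Figure D1:**
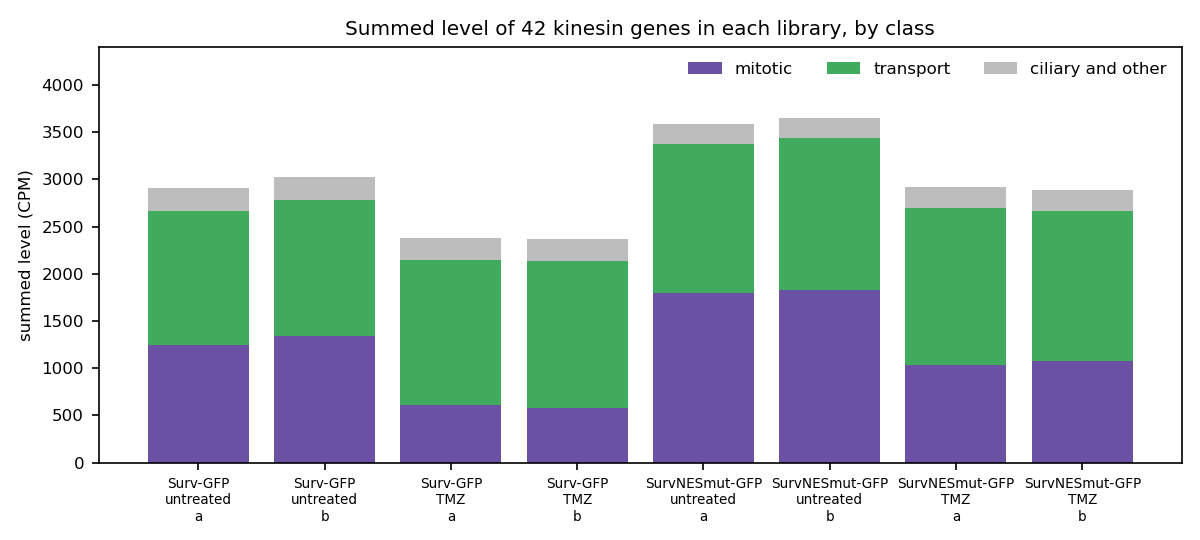
Summed level of the 42 kinesin genes (y axis, CPM) in each of the 8 libraries (x axis), stacked by class. The mitotic part falls from 1297 to 592 CPM in Surv-GFP and from 1814 to 1058 CPM in SurvNESmut-GFP upon TMZ, whereas the transport part stays between 1416 and 1658 CPM in all libraries.

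Upon TMZ, 12 of the 13 tested mitotic kinesins fell in Surv-GFP cells, at a Benjamini-Hochberg adjusted p of 0.05 by edgeR's quasi-likelihood test, and all 13 estimates lay below 0. Among all 14201 tested genes 28.9% fell and 30.1% rose in this comparison. The median log2 fold change of the mitotic kinesins was -0.86, against 0.00 for all tested genes. In SurvNESmut-GFP cells the same 12 mitotic kinesins fell and all 13 estimates again lay below 0, where 19.1% of all tested genes fell and 18.6% rose, and their median was -0.63. The exception in both clones was KIF4B, a retrocopy of KIF4A with 5 to 19 counts per library, at log2 fold changes of -0.68 ± 0.54 (SE) and -0.15 ± 0.39. Transcripts of KIF4B share 14% of their stretches of 50 bases exactly with KIF4A, so that reads of the pair may be misassigned.

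KIF20A (MKLP2), which brings the chromosomal passenger complex to the midzone in anaphase, changed most. Its level was 211 and 219 CPM in the untreated Surv-GFP libraries and 21.65 and 21.9 CPM in those with TMZ. In SurvNESmut-GFP it was 294 and 284 CPM untreated and 65.3 and 67.5 CPM with TMZ. All 4 treated libraries lay far below all 4 untreated ones. The log2 fold change was -3.30 ± 0.058 (adjusted p = 2.29e-16), a 9.88-fold fall, in Surv-GFP and -2.12 ± 0.051 (adjusted p = 1.54e-13), a 4.35-fold fall, in SurvNESmut-GFP. Among 12 cell cycle genes that are no kinesins, the steepest fall was that of PLK1, the kinase that binds KIF20A, at -2.53 and -1.98.

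Other motors of cytokinesis fell less. KIF23 (MKLP1), the motor of the centralspindlin complex, was at 71.7 and 79.6 CPM untreated and at 37.4 and 33.1 CPM with TMZ in Surv-GFP. In SurvNESmut-GFP it was at 176 and 181 CPM untreated and at 115 and 116 CPM with TMZ, so that the treated cells of this clone held more KIF23 than the untreated cells of the other. The log2 fold changes were -1.10 ± 0.068 (adjusted p = 7.21e-10) and -0.63 ± 0.058 (adjusted p = 3.32e-07). KIF14, which recruits citron kinase to the midbody, was at 119 and 138 CPM untreated and at 46.1 and 43.55 CPM with TMZ in Surv-GFP, and at 178.5 and 182.5 against 82.7 and 98.0 CPM in SurvNESmut-GFP. It fell by 1.51 ± 0.080 and by 1.0 ± 0.074 on the log2 scale. KIF20B (MPP1), a further motor of cytokinesis, fell by 0.86 ± 0.078 and 0.69 ± 0.074, and KIF4A, which works with PRC1 at the midzone and on chromosomes, fell by 0.78 ± 0.062 and 0.53 ± 0.059.

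Motors of the spindle fell in both clones as well. KIF11 (Eg5), which pushes the spindle poles apart and is the target of monastrol, was at 148 and 155 CPM untreated and at 70.7 and 66.2 CPM with TMZ in Surv-GFP, and at 190 and 198 against 121 and 124.5 CPM in SurvNESmut-GFP. Its log2 fold changes were -1.15 ± 0.054 (adjusted p = 2.47e-11) and -0.66 ± 0.051 (adjusted p = 4.64e-08). KIF15, which can take over spindle bipolarity from KIF11, fell by 0.82 ± 0.065 and 0.31 ± 0.060. KIFC1 (HSET), a minus-end motor that clusters extra centrosomes, was at 106.5 and 108 against 55.8 and 54.8 CPM in Surv-GFP and at 129 and 131.5 against 83.6 and 83.3 CPM in SurvNESmut-GFP, and it fell by 0.96 ± 0.050 and 0.64 ± 0.048. In none of these motors did treated and untreated libraries of a clone overlap. With groups of 2 this also held in Surv-GFP for kinesins that were not called, such as KIF1B and KIF3B. The share of all tested genes without overlap was not counted.

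Motors at chromosomes and microtubule ends made up the rest. KIF2C (MCAK), a depolymerase at the centromere that Aurora B regulates, was at 127 and 143 against 88.3 and 83.5 CPM in Surv-GFP and at 189 and 195 against 110 and 116 CPM in SurvNESmut-GFP. It fell by 0.65 ± 0.060 and by 0.76 ± 0.058, and was the only called mitotic kinesin whose estimate was larger in SurvNESmut-GFP. KIF18A and KIF18B, which act at plus ends and limit chromosome oscillation and astral microtubules, fell by 0.69 ± 0.078 and 0.99 ± 0.061 in Surv-GFP and by 0.60 ± 0.079 and 0.37 ± 0.054 in SurvNESmut-GFP. KIF22 (Kid), a chromosome arm motor, fell by 0.64 ± 0.052 and 0.42 ± 0.049. KIF20A and KIF2C are the 2 tested mitotic kinesins whose windows held neither TTTGAA nor TTCGAA. KIF20A fell most in both clones, while the fall of KIF2C was among the smallest in Surv-GFP and among the largest in SurvNESmut-GFP. A relation of these letters to the size of the falls was not tested.

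**Figure D2:**
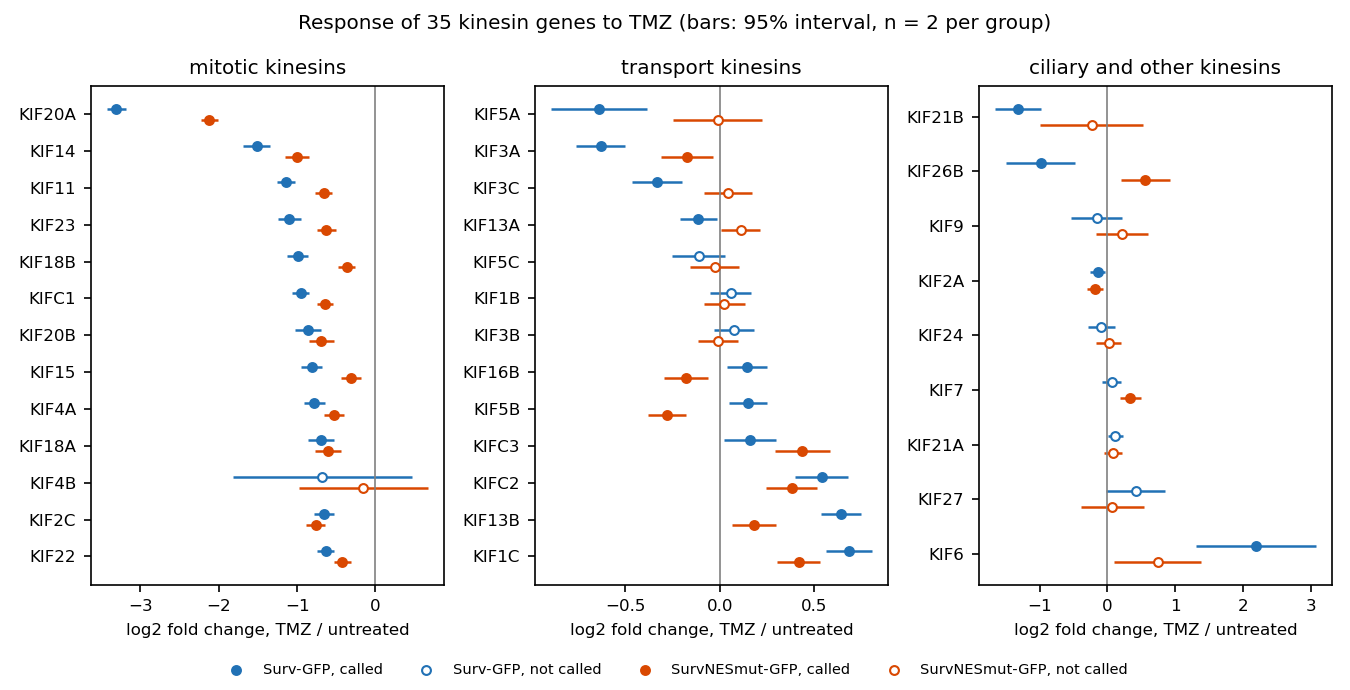
Log2 fold change with TMZ (x axis, scaled separately in each panel) of the 35 tested kinesins, in Surv-GFP (blue) and SurvNESmut-GFP (orange), with 95% intervals; filled points passed the adjusted p of 0.05. All 13 mitotic kinesins lie below 0 in both clones, from -3.30 to -0.15, while the transport kinesins lie on both sides of 0, from -0.64 to 0.68.

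Transport kinesins moved in both directions. In Surv-GFP cells 6 of 13 rose and 4 fell, with a median log2 fold change of 0.08, and in SurvNESmut-GFP cells 4 rose and 3 fell, with a median of 0.02. As shares, 46.2% of the transport kinesins against 30.1% of all tested genes rose in Surv-GFP and 30.8% against 28.9% fell. The 6 that rose became 3 with a filter of 1 CPM in 2 libraries, where KIF16B, KIF5B and KIFC3 lost their calls, and 4 without Surv-GFP untreated replicate b, TMZ replicate a or TMZ replicate b. In SurvNESmut-GFP the shares were 30.8% against 18.6% and 23.1% against 19.1%, and with any 1 library left out the 3 falls became 1 or 2. DESeq2 did not call KIF13A, KIF16B and KIFC3 in Surv-GFP (adjusted p between 0.0751 and 0.191) or KIF13B, KIF16B and KIF3A in SurvNESmut-GFP (adjusted p between 0.0843 and 0.122). Counted as transport kinesins, KIF21A and KIF21B would have added 1 fall in Surv-GFP and no call in SurvNESmut-GFP. No library is shared by these 2 comparisons, and the sign was the same in both clones for 13 of 13 mitotic kinesins, for 8 of 13 transport kinesins and for 66.4% of all tested genes.

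KIF1C, a carrier of dense-core vesicles and integrins, was at 82.2 and 85.4 CPM untreated and at 135 and 134.5 CPM with TMZ in Surv-GFP. In SurvNESmut-GFP it was at 203 and 213 CPM untreated and at 291.5 and 264 CPM with TMZ, above all libraries of the other clone. It rose by 0.68 ± 0.058 (adjusted p = 3.45e-08) and by 0.42 ± 0.054 (adjusted p = 1.28e-05). KIF13B (GAKIN), a kinesin of vesicle and polarity transport, was at 67.7 and 69.2 against 106 and 107 CPM in Surv-GFP and at 50.6 and 50.9 against 56.85 and 58.4 CPM in SurvNESmut-GFP. It rose by 0.64 ± 0.050 in Surv-GFP and by 0.18 ± 0.055 in SurvNESmut-GFP, and the call in the latter was lost without untreated replicate a or b of that clone (adjusted p = 0.0703 and 0.0607).

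Both minus-end transport motors rose in both clones. Of these, KIFC2 was at 37.9 and 37.8 against 53.1 and 57.0 CPM in Surv-GFP and at 49.1 and 46.8 against 64.9 and 59.9 CPM in SurvNESmut-GFP, with log2 fold changes of 0.54 ± 0.065 and 0.38 ± 0.063. KIFC3, which works at adherens junctions and in vesicle transport, was at 159 and 147 against 164 and 178 CPM in Surv-GFP and at 90.5 and 90.0 against 131 and 113 CPM in SurvNESmut-GFP. Its log2 fold changes were 0.16 ± 0.065 and 0.44 ± 0.069, and the first, with adjusted p = 0.0427, was lost without Surv-GFP untreated replicate b (0.11), TMZ replicate b (0.11) or either untreated SurvNESmut-GFP library (0.16). Exons of KIFC2 overlap those of FOXH1 on the opposite strand over 17.8% of their length, and no source names the strandedness of the libraries. Exons of KIF9, KIF22 and KIFC1 overlap other genes over 14.9%, 13.0% and 12.7% of their length and those of KIF2A overlap IPO11 over 8.97%, so these counts are uncertain too.

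KIF5B and KIF16B moved in opposite directions in the clones. KIF5B, the ubiquitous conventional kinesin heavy chain, was at 376 and 397 against 430 and 428 CPM in Surv-GFP and at 497 and 520 against 414.5 and 423 CPM in SurvNESmut-GFP. It rose by 0.15 ± 0.048 (adjusted p = 0.0128) in the first and fell by 0.28 ± 0.048 (adjusted p = 0.000213) in the second, so that the treated libraries of both clones met between 414.5 and 430 CPM. KIF16B, a motor of early endosomes, was at 75.4 and 73.0 against 82.0 and 82.1 CPM and at 56.9 and 57.4 against 50.7 and 50.5 CPM, with log2 fold changes of 0.14 ± 0.050 and -0.18 ± 0.055. The rise of KIF5B was lost without Surv-GFP untreated replicate a (0.11) or TMZ replicate a (0.15), and that of KIF16B without Surv-GFP untreated replicate b (0.12), TMZ replicate a (0.14) or TMZ replicate b (0.15). The fall of KIF16B was lost without any 1 of the 4 SurvNESmut-GFP libraries, with values from -0.18 to -0.17.

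The kinesin-2 motors KIF3A and KIF3C and the neuronal kinesin-1 KIF5A fell in Surv-GFP, whereas the kinesin-2 motor KIF3B did not pass the test. KIF3A, which drives intraflagellar transport together with KIF3B, was at 81.4 and 83.6 against 53.9 and 52.7 CPM, and fell by 0.63 ± 0.062 (adjusted p = 1.94e-07). KIF3C was at 67.4 and 64.0 against 50.6 and 53.8 CPM and fell by 0.33 ± 0.063, and KIF5A was at 11.9 and 12.3 against 7.91 and 7.57 CPM and fell by 0.64 ± 0.12. In SurvNESmut-GFP the values of KIF3C and KIF5A were 0.04 ± 0.059 and -0.01 ± 0.11, neither past the test and with overlapping libraries. KIF3A was at 53.9 and 60.2 against 52.2 and 48.9 CPM there and fell by 0.17 ± 0.065 with adjusted p = 0.0446. That call was lost without any 1 of 6 libraries, namely both untreated and both treated Surv-GFP libraries (-0.17) and SurvNESmut-GFP untreated replicate b (-0.09) or TMZ replicate b (-0.12).

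Some transport kinesins did not pass the test. KIF1B, a carrier of mitochondria and synaptic vesicle precursors, was called in none of the 5 comparisons, with levels between 116 and 126 CPM in all 8 libraries. Its TMZ values were 0.06 ± 0.051 and 0.02 ± 0.052. In Surv-GFP KIF3B, the partner of KIF3A, was at 0.08 ± 0.050 and KIF5C, a further kinesin-1 heavy chain, at -0.11 ± 0.066. KIF13A, a motor of recycling endosomes, fell by 0.11 ± 0.047 in Surv-GFP (adjusted p = 0.0465) and was at 0.11 ± 0.049 in SurvNESmut-GFP. The fall was lost without any 1 of 6 libraries, with values of -0.13 and -0.10 without Surv-GFP untreated replicates a and b, -0.12 and -0.10 without Surv-GFP TMZ replicates a and b, and -0.11 without either untreated SurvNESmut-GFP library.

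**Figure D3:**
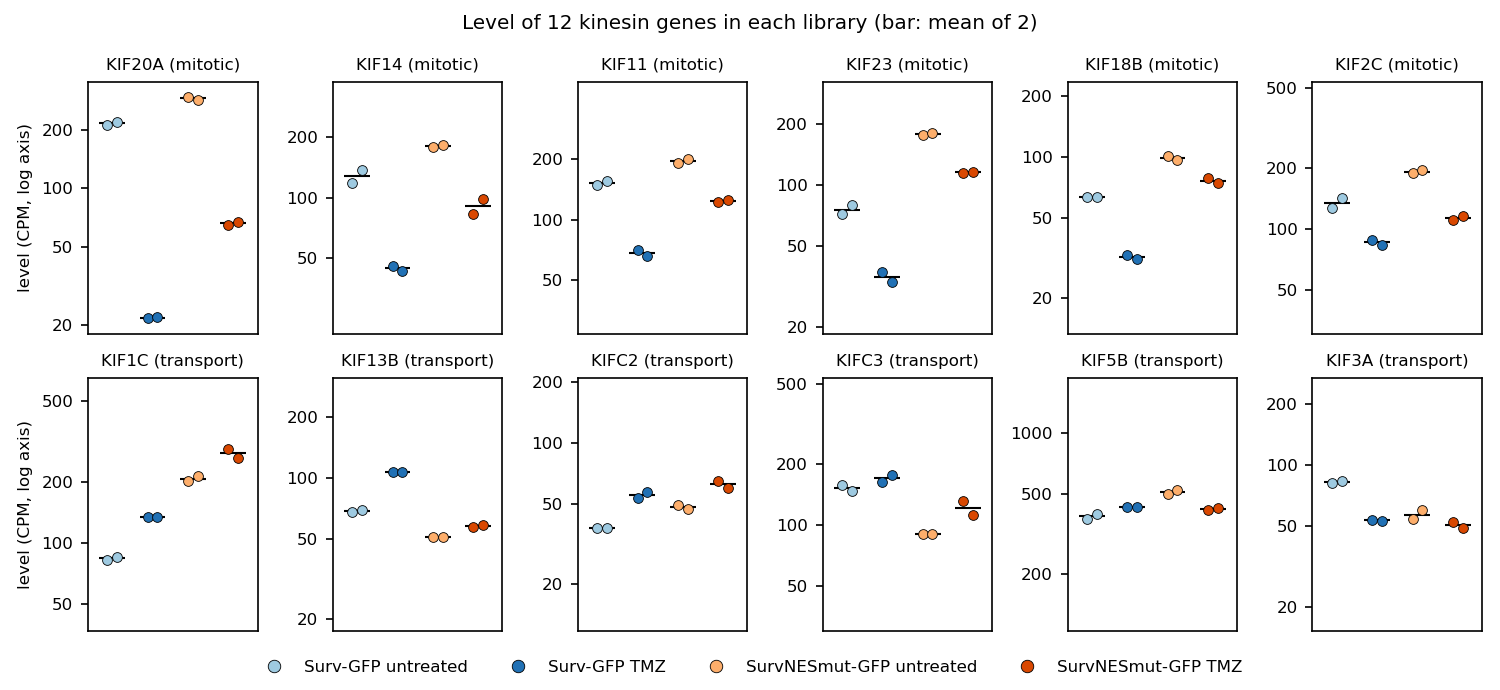
Level (y axis, CPM, log axis) of 6 mitotic and 6 transport kinesins in each library, as points with the mean of 2 as a bar; colours mark the 4 groups. KIF20A drops from 211 and 219 to 21.65 and 21.9 CPM in Surv-GFP. KIF5B lies between 376 and 520 CPM in all libraries, with a rise in Surv-GFP and a fall in SurvNESmut-GFP upon TMZ.

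Among the 9 tested ciliary and other kinesins, 1 rose and 3 fell in Surv-GFP, and 2 rose and 1 fell in SurvNESmut-GFP. These are 11.1% and 33.3% in the first, against 30.1% and 28.9% of all tested genes, and 22.2% and 11.1% in the second, against 18.6% and 19.1%. The 3 falls became 1 without Surv-GFP TMZ replicate a, and the 2 rises became 1 without either untreated SurvNESmut-GFP library. KIF21A, KIF24, KIF27 and KIF9 passed the test in neither clone. KIF21B, a motor that also restrains microtubule growth, was at 8.61 and 9.65 against 3.37 and 3.96 CPM in Surv-GFP and fell by 1.32 ± 0.16. In SurvNESmut-GFP it had 10 to 18 counts per library and a value of -0.23 ± 0.36. KIF26B, an atypical kinesin of cell adhesion and polarity, was at 12.5 and 7.06 against 3.69 and 6.25 CPM in Surv-GFP and fell by 0.99 ± 0.24, while it rose by 0.56 ± 0.17 in SurvNESmut-GFP from 17.2 and 15.2 to 24.4 and 23.2 CPM. The fall was lost without Surv-GFP untreated replicate a (-0.52) or TMZ replicate a (-0.64), and the rise without SurvNESmut-GFP untreated replicate a (0.65) or b (0.47). A robust prior in edgeR ended both calls of KIF26B (adjusted p = 0.0548 and 0.143), and DESeq2 ended that of the rise (adjusted p = 0.284).

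KIF6 rose by 2.19 ± 0.42 in Surv-GFP but rested on 4 and 6 counts against 27 and 19, and in SurvNESmut-GFP it went from 19 and 16 to 26 and 27 counts, a value of 0.74 ± 0.31 that did not pass the test. KIF7, a ciliary regulator of Hedgehog signalling, was at 0.06 ± 0.068 in Surv-GFP and rose by 0.34 ± 0.074 in SurvNESmut-GFP, from 24.55 and 26.9 to 32.8 and 32.1 CPM. Exons of KIF7 overlap those of TICRR on the opposite strand over 11.8% of their length. KIF2A, a depolymerase of spindle poles and neurites, fell by 0.14 ± 0.055 in Surv-GFP and by 0.18 ± 0.054 in SurvNESmut-GFP. The call in Surv-GFP was lost without untreated replicate b (-0.08), TMZ replicate a (-0.13) or TMZ replicate b (-0.16), and that in SurvNESmut-GFP without untreated replicates a (-0.17) or b (-0.19) or TMZ replicate a (-0.16). DESeq2 called KIF2A in neither clone (adjusted p = 0.0648 and 0.0595). Counted as mitotic, KIF2A would have made it 13 of 14 falls in each clone.

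The TMZ effects of the clones were then tested against each other. For 9 of 13 mitotic kinesins the log2 fold change was higher, that is the fall was smaller, in SurvNESmut-GFP, with a median difference of 0.47. By edgeR it was lower for none, also at an unadjusted p under 0.05, and by DESeq2 7 were higher and 0 lower. Among all tested genes the difference was, by edgeR, higher for 16.6% and lower for 20.2%. Such shares by DESeq2 were not counted. KIF20A showed the largest difference of the mitotic kinesins, 1.18 ± 0.078 (adjusted p = 1.01e-08). It was followed by KIF18B with 0.62 ± 0.082 (adjusted p = 2.04e-05), KIF14 with 0.51 ± 0.11, KIF15 with 0.51 ± 0.089, KIF11 with 0.49 ± 0.074 and KIF23 with 0.47 ± 0.089. KIFC1, KIF4A and KIF22 had 0.31 ± 0.069, 0.25 ± 0.086 and 0.22 ± 0.071.

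KIF2C, KIF18A and KIF20B, and with them the sparse KIF4B, did not pass this test. KIF2C was at -0.11 ± 0.083 (95% interval -0.29 to 0.07), KIF18A at 0.09 ± 0.11 (-0.14 to 0.33) and KIF20B at 0.16 ± 0.11 (-0.06 to 0.39). These intervals span 0 but do not show that the clones responded alike. The call of KIF4A was lost without Surv-GFP untreated replicate b (0.19), TMZ replicate b (0.18) or SurvNESmut-GFP untreated replicate a (0.22). The call of KIF22 was lost without Surv-GFP untreated replicate b (0.18), TMZ replicates a (0.23) or b (0.21), or SurvNESmut-GFP untreated replicates a (0.22) or b (0.21). DESeq2 called neither of them (adjusted p = 0.0522 and 0.0684).

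Of the transport kinesins, 5 had a higher and 4 a lower log2 fold change in SurvNESmut-GFP, 38.5% and 30.8% against 16.6% and 20.2% of all tested genes. Lower were KIF13B with -0.46 ± 0.074 (adjusted p = 0.000142), KIF5B with -0.43 ± 0.067 (adjusted p = 0.000113), KIF16B with -0.32 ± 0.075 and KIF1C with -0.27 ± 0.079. Higher were KIF5A with 0.63 ± 0.16, KIF3A with 0.46 ± 0.089 (adjusted p = 0.000771), KIF3C with 0.38 ± 0.087, KIFC3 with 0.27 ± 0.095 and KIF13A with 0.22 ± 0.068. Without SurvNESmut-GFP untreated replicate a the number higher was 3 in place of 5, with KIFC3 at 0.28 and KIF13A at 0.20. The call of KIFC3 was also lost without SurvNESmut-GFP TMZ replicate a (0.16), untreated replicate b (0.27) or Surv-GFP replicates a, untreated (0.22) or TMZ (0.22), that of KIF13A without Surv-GFP replicates b, untreated (0.21) or TMZ (0.22), and that of KIF1C without Surv-GFP replicates a, untreated (-0.24) or TMZ (-0.26), or SurvNESmut-GFP untreated replicate b (-0.23).

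Of the ciliary and other kinesins, KIF26B, KIF21B and KIF7 had a higher and KIF6 a lower log2 fold change in SurvNESmut-GFP. These were 33.3% and 11.1% of the 9 tested, against 16.6% and 20.2% of all tested genes. KIF26B differed by 1.54 ± 0.29 (adjusted p = 0.000618), KIF21B by 1.09 ± 0.40, KIF7 by 0.27 ± 0.10 and KIF6 by -1.45 ± 0.54. The last 3 had adjusted p between 0.0435 and 0.0448, and each lost its call with most of the libraries when taken out singly, and with DESeq2 (adjusted p between 0.0955 and 0.195). Over these omissions the values ranged from 0.72 to 1.17 for KIF21B, from 0.21 to 0.30 for KIF7 and from -1.78 to -1.18 for KIF6.

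Before any treatment the clones already differed. By edgeR, 11 of 13 mitotic kinesins were higher in SurvNESmut-GFP and none lower, also at an unadjusted p under 0.05, with a median of 0.45, where 34.7% of all tested genes were higher and 29.4% lower. DESeq2 also gave 11 higher and 0 lower. KIF23 differed most, 75.6 ± 5.5 CPM against 179 ± 3.6 CPM (SD, n = 2), a log2 difference of 1.24 ± 0.059 (adjusted p = 2.17e-11). KIF18B was at 63.4 against 98.6 CPM with a difference of 0.64 ± 0.055, and the remaining called members lay between 0.28 for KIFC1 and 0.51 for KIF2C. KIF18A was at 43.4 ± 2.8 and 42.4 ± 2.7 CPM, a difference of -0.04 ± 0.073 with overlapping libraries, and KIF4B was at 0.83 ± 0.42, past the test only without Surv-GFP untreated replicate b (1.41).

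With TMZ in both clones, 12 of 13 mitotic kinesins were higher in SurvNESmut-GFP and all 13 estimates lay above 0, with a median of 0.84, where 34.5% of all tested genes were higher and 34.7% lower. KIF23 then stood at 1.71 ± 0.066 (adjusted p = 1.77e-12), KIF20A at 1.61 ± 0.062, KIF18B at 1.26 ± 0.061 and KIF14 at 1.01 ± 0.083. KIF18A was again the exception, at 0.06 ± 0.084. KIF4B was called at 1.35 ± 0.49 on 5 and 6 against 14 and 12 counts, and its call was lost with DESeq2 (adjusted p = 0.109) and without Surv-GFP TMZ replicate a (1.15), replicate b (1.5) or SurvNESmut-GFP TMZ replicate a (1.26).

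Transport kinesins differed between the clones gene by gene. Untreated, 6 were higher and 5 lower in SurvNESmut-GFP (46.2% and 38.5%, against 34.7% and 29.4% of all tested genes). With TMZ, 6 were higher and 4 lower (46.2% and 30.8%, against 34.5% and 34.7%). With TMZ, KIF3B and KIFC2 lost their calls without Surv-GFP TMZ replicate a (0.12 and 0.10) or SurvNESmut-GFP TMZ replicate a (0.08 and 0.09). The call of KIF3B was also lost without Surv-GFP TMZ replicate b (0.15). DESeq2 did not call KIFC2 (adjusted p = 0.088). KIF1C was the highest, 83.8 ± 2.3 against 208 ± 7.0 CPM untreated (SD, n = 2), a difference of 1.31 ± 0.057, and 1.05 ± 0.055 with TMZ. KIF5C was higher by 0.70 ± 0.063 and 0.79 ± 0.064, whereas KIFC3 was lower by a log2 difference of -0.76 ± 0.068 and -0.49 ± 0.066 and KIF13A by -0.61 ± 0.048 and -0.38 ± 0.048. KIF13B was at -0.43 ± 0.053 untreated and -0.89 ± 0.051 with TMZ. KIF5B and KIF3A differed untreated, by 0.39 ± 0.048 and -0.53 ± 0.061, and with TMZ were at -0.03 ± 0.048 and -0.08 ± 0.065, neither past the test. KIF1B was at 0.00 ± 0.051 and -0.04 ± 0.052.

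**Figure D4:**
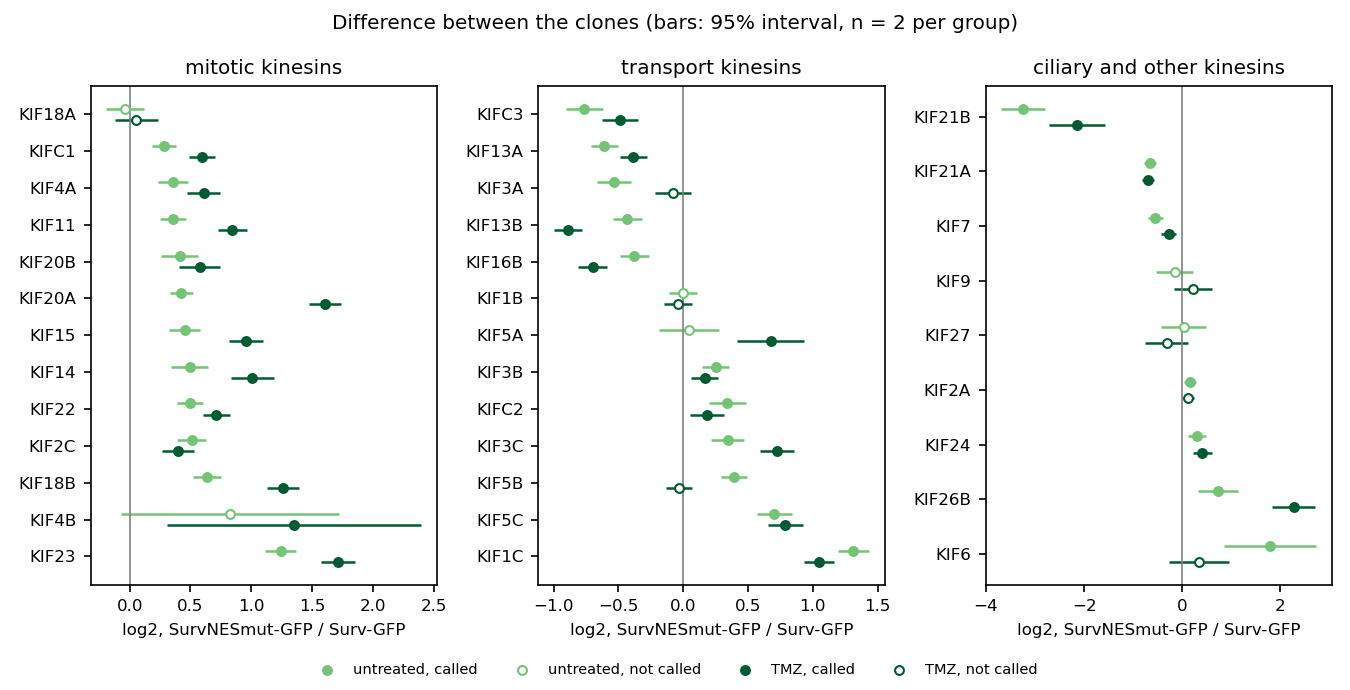
Log2 difference of SurvNESmut-GFP from Surv-GFP (x axis, scaled separately in each panel) for the 35 tested kinesins, untreated (light) and with TMZ (dark), with 95% intervals; filled points passed the adjusted p of 0.05. Called mitotic kinesins all lie above 0, up to 1.71 for KIF23 with TMZ, while KIF21B lies at -3.24 untreated.

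Of the ciliary and other kinesins, 4 were higher and 3 lower in untreated SurvNESmut-GFP (44.4% and 33.3%, against 34.7% and 29.4% of all tested genes), and 2 higher and 3 lower with TMZ (22.2% and 33.3%, against 34.5% and 34.7%). Without SurvNESmut-GFP untreated replicate a the 4 became 1, since KIF24, KIF26B and KIF2A lost their calls, and DESeq2 also gave 1. KIF21B stood out at 9.13 ± 0.74 against 0.96 ± 0.022 CPM untreated (SD, n = 2), a difference of -3.24 ± 0.21 (adjusted p = 1.05e-09), and was at -2.15 ± 0.27 with TMZ. KIF21A, its close relative, was lower by a difference of -0.66 ± 0.058 and -0.70 ± 0.058. KIF26B was higher by 0.73 ± 0.19 untreated and by 2.27 ± 0.21 with TMZ, from 4.97 ± 1.8 against 23.8 ± 0.83 CPM. The untreated difference of KIF26B was 1.2 without Surv-GFP untreated replicate a, and its call was lost without replicate b (0.38) or SurvNESmut-GFP untreated replicate a (0.63), with DESeq2 (adjusted p = 0.101) or with the robust prior (adjusted p = 0.0676). KIF24 was higher by 0.30 ± 0.0895 untreated, a call lost without SurvNESmut-GFP untreated replicate a (0.23), and by 0.41 ± 0.092 with TMZ. KIF2A was higher by 0.16 ± 0.054 untreated, and its call was lost without Surv-GFP untreated replicate a (0.10) or any 1 of 4 other libraries. It also ended with library size alone, DESeq2 or other filters on low counts. KIF7 was at -0.55 ± 0.071 and -0.28 ± 0.070.

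Partners of the mitotic kinesins moved beside them. Of 18 spindle partners tested, 17 fell and 1 rose in Surv-GFP (94.4% and 5.56%, against 28.9% and 30.1% of all tested genes), and all 18 fell in SurvNESmut-GFP (against 19.1%). The one that rose was BIRC5, whose counts include the transgene, and without it the medians were -1.05 and -0.66. CENPE, the kinetochore kinesin whose symbol the family rule does not match, was at 135 and 150 against 46.2 and 42.3 CPM in Surv-GFP and at 162 and 167 against 70.8 and 67.8 CPM in SurvNESmut-GFP, and it fell by 1.68 ± 0.063 and 1.25 ± 0.060. ASPM, a spindle pole protein, fell by 1.65 and 1.18, AURKA, the Aurora kinase of spindle poles, by 1.55 and 1.59. INCENP, the scaffold of the passenger complex, fell by 1.14 and 0.59, and KNSTRN, a kinetochore protein of the spindle, by 1.02 and 0.99. BIRC5 rose by 0.81 in Surv-GFP and fell by 0.67 in SurvNESmut-GFP, a difference of -1.48. The fall was smaller in SurvNESmut-GFP by the test of the difference for 10 of the 17 partners other than BIRC5 (58.8%, against 16.6% of all tested genes), among them INCENP (0.56), ANLN (0.54), ASPM (0.47) and CENPE (0.44).

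The 12 cell cycle genes without kinesins, such as MKI67, TOP2A, CCNB1 and PLK1, all fell in both clones. Of all tested genes, 28.9% fell in Surv-GFP and 19.1% in SurvNESmut-GFP. The 12 genes had a median of -1.43 for Surv-GFP and of -0.82 for SurvNESmut-GFP. Their range was -2.53 to -0.50 in the first and -1.98 to -0.45 in the second. The log2 fold change was higher in SurvNESmut-GFP for 10 of the 12 by the test of the difference (83.3%, against 16.6% of all tested genes). Untreated, 10 of the 12 were also higher in SurvNESmut-GFP (83.3%, against 34.7% of all tested genes), and with TMZ all 12 were (against 34.5%). The part of the cell cycle in the falls of the mitotic kinesins was not tested.

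Cargo adaptors, the partners of transport kinesins, were called in both directions. Of 23 tested, 9 rose and 6 fell in Surv-GFP (39.1% and 26.1%, against 30.1% and 28.9%), and 4 rose and 5 fell in SurvNESmut-GFP (17.4% and 21.7%, against 18.6% and 19.1%), with medians of 0.07 in both. Among the light chains that tie kinesin-1 to its cargo, KLC2 was at 70.5 and 69.5 against 162 and 162 CPM in Surv-GFP and at 118 and 129 against 160 and 144 CPM in SurvNESmut-GFP. It rose by 1.21 ± 0.060 and 0.31 ± 0.058, and the difference of -0.90 ± 0.083 passed the test (adjusted p = 4.62e-07). KLC1 fell by 0.33 ± 0.051 and 0.17 ± 0.051, KLC4 was at -0.08 ± 0.087 and 0.00 ± 0.081, and KLC3 had at most 2 counts in a library.

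SYBU (syntabulin), which links KIF5B to syntaxin vesicles, was at 0.87 and 1.21 against 7.38 and 6.94 CPM in Surv-GFP and at 3.14 and 2.72 against 10.5 and 9.26 CPM in SurvNESmut-GFP, and it rose by 2.78 ± 0.21 and 1.75 ± 0.16. TRAK1, the adaptor of mitochondria, fell by 0.78 ± 0.061 in Surv-GFP and was at -0.10 ± 0.062 in SurvNESmut-GFP, and FEZ1, an adaptor of kinesin-1, fell by 0.58 ± 0.059 and was at 0.11 ± 0.065. GRIP1, which steers KIF5 to dendrites in neurons, rose by 1.2 ± 0.18 and 1.40 ± 0.18. KIFAP3, the non-motor subunit of kinesin-2, was at 0.00 ± 0.064 in Surv-GFP and fell by 0.27 ± 0.063 in SurvNESmut-GFP.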

How the data were processed

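RNA-seq counts of 8 libraries were analysed. The authors deposited 1 table of raw read counts per gene, together with 5 tables of their own comparisons (log2 fold change, logCPM, F, p and FDR), which were not used. The submitters' processing notes name STAR 2.5.0b, Cufflinks 2.2.1 and edgeR. The counting program, the annotation, the genome build and the strandedness of the counts are stated in no source used here. Reads on no feature (11.2% to 14.3% of a library) and ambiguous reads (1.19% to 1.28%) stayed out of library sizes and tests.

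Counts were fitted with edgeR 4.0.16, which builds on limma 3.58.1, under R 4.3.3: TMM factors, genes kept by filterByExpr (14201 of 26364), 4 group means and quasi-likelihood F tests, with Benjamini-Hochberg adjustment over all tested genes and calls at an adjusted p of 0.05. Standard errors are the log2 fold change divided by the square root of F. CPM use the TMM-scaled library sizes. Depth was 15826923 to 18861603 counts, and limits for 0 counts (3 counts) cover counting error only. Exon lengths and overlaps came from GENCODE 29. No block was used, since the letters name no shared batch. Same-lettered libraries also did not deviate together (correlations of -0.119 to 0.106).

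The members and gene lists were chosen with earlier results of these data known. Genes named with values are those with the smallest p in each class, direction and comparison (up to 5 mitotic, 5 transport, 3 other kinesins and 4 partners per list), plus CENPE, KLC1 to KLC4 and members that were not called. Some further called kinesins were named after their values were seen. Alternatives were other size factors, other filters, DESeq2 1.42.0, other settings of edgeR, a replicate block and leaving out each library. The scripts were tested on simulated counts.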

Additional observations from a re-analysis of the deposited data

Results flagged for a closer look

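The TMZ effects of the clones differed, by edgeR's quasi-likelihood test of the difference itself, for 22 of the 35 tested kinesins, 17 higher and 5 lower in SurvNESmut-GFP (48.6% and 14.3%, against 16.6% and 20.2% of all tested genes). Of the 22 calls, 14 held with each library left out in turn, and those of KIF13A, KIF1C, KIF21B, KIF22, KIF4A, KIF6, KIF7 and KIFC3 did not. The values are the log2 fold change in SurvNESmut-GFP minus that in Surv-GFP. Among mitotic kinesins it was 1.18 for KIF20A, 0.62 for KIF18B, 0.51 for KIF14, 0.51 for KIF15, 0.49 for KIF11, 0.47 for KIF23, 0.31 for KIFC1, 0.25 for KIF4A and 0.22 for KIF22. Among transport kinesins it was 0.63 for KIF5A, 0.46 for KIF3A, 0.38 for KIF3C, 0.27 for KIFC3, 0.22 for KIF13A, -0.27 for KIF1C, -0.32 for KIF16B, -0.43 for KIF5B and -0.46 for KIF13B. Among ciliary and other kinesins it was 1.54 for KIF26B, 1.09 for KIF21B, 0.27 for KIF7 and -1.45 for KIF6. Libraries of a group number 2, so no single library could be tested as standing apart from its group.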

How the results depend on the processing

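The counts of mitotic kinesins called in each direction stayed within 1.5 times under every alternative run. The following 3 counts of transport kinesins did not. The 6 that rose with TMZ in Surv-GFP became 3 with a filter of 1 CPM in 2 libraries, and 4 to 6 with 1 library left out. The 3 that fell in SurvNESmut-GFP became 1 with library size alone, 1 with DESeq2 and 1 with only the libraries compared, and 1 to 2 with 1 library left out. The 5 with a higher effect in SurvNESmut-GFP were 3 to 5 with 1 library left out. The cause was not tested. Leaving out each library in turn kept 20 of 26 kinesin calls with TMZ in Surv-GFP, 17 of 22 in SurvNESmut-GFP, 14 of 22 for the difference, 26 of 29 between untreated clones and 24 of 27 with TMZ. DESeq2 ended 19 calls over the 5 comparisons, among them KIF13B and KIF26B with TMZ in SurvNESmut-GFP, KIF2A with TMZ in both clones and KIF24 between untreated clones, and the robust prior ended 3, all of KIF26B.

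The signs that turned belong to values that did not pass the test. With 1 library left out, the TMZ effect in SurvNESmut-GFP ranged from -0.012 to 0.0675 for KIF1B, from -0.599 to 0.0544 for KIF21B, from -0.0285 to 0.123 for KIF3C, from -0.383 to 0.125 for KIF4B and from -0.101 to 0.078 for KIF5A, which was 0.0244 with library size alone. The difference for KIF1B ranged from -0.0719 to 0.0075, and was 0.0214 with library size alone and 0.0116 with the filter of 1 CPM. Between untreated clones KIF18A ranged from -0.101 to 0.0319 and KIF1B from -0.042 to 0.0282, and with TMZ KIF18A ranged from -0.0419 to 0.0829.

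With the replicate letter as a block, the transport kinesins that fell in Surv-GFP numbered 3 in place of 4, since KIF13A (-0.11) lost its call, and the block also ended those of KIF3A in SurvNESmut-GFP (-0.17) and of KIF21B (1.09), KIF6 (-1.45) and KIF7 (0.27) for the difference. The letters share only a name. The alternatives were run for kinesins and not for their partners.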
